A study of Mus musculus with 12 samples.

Results

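The genes described here are 36 genes of autophagy and of the lysosome, taken from a fixed list of symbols that covers the start of autophagosome formation, the conjugation machinery, cargo receptors, TFEB-family transcription factors, and lysosomal enzymes and membrane proteins. All 36 symbols matched 1 gene ID among the 53465 IDs of the deposited count table, and all 36 were among the 14778 genes that passed the filter on low counts. The rule names genes by function and uses no measured value, but the list was drawn up with earlier results of these data known.

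The samples were RNA-seq libraries from mouse liver, 12 in all, with 3 libraries in each of 4 groups. Control mice carried Pld1-Flox (labelled WT) and received either normal chow or HFD, a high-fat diet. The other mice, Pld1(H)-KO, are described as lacking phospholipase D1 in hepatocytes, the main cell type of the liver, and were fed the same diets. Loss of the protein was not measured here. The design text gives 20 weeks of HFD and calls the animals knockout, the sample labels call them knockdown, and neither names the driver of the deletion, the strain, age or sex, or the time on chow. The labels number the libraries 1 to 3 in a group without saying that each came from a separate animal, so the p-values measure spread that may be technical.

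Autophagy encloses cytoplasm, organelles or lipid droplets in a membrane that grows into an autophagosome and fuses with the lysosome, where acid hydrolases digest the contents. The ULK1 kinase complex starts the process, a class III phosphatidylinositol 3-kinase complex marks the membrane, and linked ubiquitin-like conjugation systems attach ATG8-family proteins (LC3 and GABARAP) to it, to which cargo receptors bind. TFEB and TFE3 switch on many lysosomal and autophagy genes through the sequence CACGTG and its extended form, the CLEAR element. In hepatocytes autophagy supplies amino acids in fasting, and lysosomal acid lipase, the product of Lipa, releases fatty acids and cholesterol from lipid delivered to the lysosome.

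Promoter windows from RefSeq on build GRCm38.p6, which cover 250 bases before to 50 after each start site, were found for 29 of the 36 genes (33 windows). The hexamer CACGTG, which reads the same on both strands, was in 9 of the 33 windows, or 27.3%, against 7.15% of all 32851 windows. The 9 genes were Lamp1, Mcoln1, Ctsd, Ctsl, Atg3, Atg5, Atg7, Atg14 and Bnip3. The longer TCACGTGA, also its own reverse complement, was in 3 windows (9.09%, against 0.974% of all), and GTCACGTG or its reverse complement CACGTGAC in 6 (18.2%, against 2.25%). Both longer words hold the hexamer, so the 3 counts overlap. Stretches from 4 windows are shown with CACGTG in capitals, because they hold the densest or the longest matches among a lysosomal membrane protein (Lamp1), a lysosomal channel (Mcoln1), a conjugation enzyme (Atg3) and a lysosomal protease (Ctsd). They lie at chr8:13159095-13159155 (plus strand, from 66 to 6 bases before the start) for Lamp1, chr8:3500439-3500488 (plus strand, 80 to 31 before) for Mcoln1, chr16:45158726-45158772 (plus strand, 103 to 57 before) for Atg3 and chr7:142387908-142387937 (minus strand, 110 to 81 before) for Ctsd. Each is written 5′ to 3′ on the gene's strand.
Lamp1: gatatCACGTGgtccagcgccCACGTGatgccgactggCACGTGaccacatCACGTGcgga
Mcoln1: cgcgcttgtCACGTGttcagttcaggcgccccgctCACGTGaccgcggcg
Atg3: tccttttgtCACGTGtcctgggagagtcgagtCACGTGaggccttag
Ctsd: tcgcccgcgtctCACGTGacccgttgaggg
The Lamp1 stretch holds 4 copies of the hexamer, those of Mcoln1 and Atg3 hold 2 each and that of Ctsd holds 1. TCACGTGA is in the stretches of Mcoln1, Atg3 and Ctsd. A match is a description of these letters and not evidence of binding. Among genes outside the 36, the hexamer was in 7 of 11 windows of lysosomal enzyme sorting genes (63.6%), 4 of 13 of V-ATPase subunits (30.8%), 9 of 32 of other lysosomal hydrolases (28.1%) and 2 of 27 of other autophagy machinery (7.41%). It was in 3 of 20 windows of other lysosomal membrane proteins (15%), 4 of 27 of upstream control genes (14.8%) and 1 of 19 of other selective receptors (5.26%).

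Library totals lay between 18215008 and 22378180 counts, and each of the 36 genes had at least 70 counts in every library. Levels are given as CPM, the counts divided by the scaled library size in units of 1e6 counts, and as CPM per kilobase of exon where genes are compared with each other. Pld1, the targeted gene, was at 10.6 ± 1.28 CPM (mean ± SD, n = 3, here and below) in control chow and 4.03 ± 0.614 in knockout chow livers, and at 7.13 ± 0.624 in control HFD and 2.60 ± 0.575 in knockout HFD livers, lower in the knockout on both diets. Its log2 fold change was -1.39 on chow (SE 0.14, adjusted p = 1.08e-09), while on HFD it came to -1.45 (SE 0.16, adjusted p = 7.54e-09). All p-values are from the quasi-likelihood test of edgeR, adjusted over the 14778 genes by the method of Benjamini and Hochberg, and a gene is called changed at an adjusted p under 0.05. Markers of hepatocytes, which define the tissue, (9 of 10 listed ones in the table) summed to 97650 to 98767 CPM in control chow, 92269 to 92836 in control HFD, 94051 to 95902 in knockout chow and 102107 to 106807 in knockout HFD livers. All 9 were called changed in the knockout on both diets, against 32.4% of all tested genes on HFD and 31.2% on chow. Of the 9, 8 were higher and 1 lower in the knockout on HFD, and 3 were higher and 6 lower on chow. Resident macrophage markers (12 of 12 measured, none at 0) summed to 176 to 186 CPM in control chow, 193 to 200 in control HFD, 443 to 461 in knockout chow and 286 to 292 in knockout HFD livers. Neutrophil markers summed to 18.5 to 19.2, 2.47 to 3.15, 52.5 to 55.8 and 8.27 to 8.84 CPM in the same order, and cholangiocyte markers to 78.5 to 84.6, 68.4 to 71.1, 190 to 202 and 49.5 to 54.8 CPM. Stellate cell markers summed to 178 to 188, 279 to 291, 234 to 240 and 238 to 248 CPM in that order. Recruited or lipid-associated macrophage markers summed to 166 to 170, 146 to 155, 415 to 435 and 155 to 162 CPM. In bulk tissue, fewer cells of a type and less RNA per cell cannot be told apart.

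Within the liver these genes spanned a wide range of levels. Per kilobase, the cargo receptor Sqstm1 was highest at 163 CPM per kb over all 12 libraries, followed by Lamp1 (146), Gabarapl1 (122), Gabarap (96.8), Ctsb (95.0), Ctsl (80.5) and Lamp2 (74.7). The transcription factors and the conjugation enzyme Atg10 were lowest, with Tfe3 at 3.42, Atg10 at 2.69 and Tfeb at 1.82 CPM per kb. The libraries of a group lay close together, with a median coefficient of variation of 3.19% over the genes and groups. Lamp1 and Lamp2 encode the main glycoproteins of the lysosomal membrane.

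On HFD, 14 of the 36 genes (38.9%) differed between knockout and control livers, 6 higher and 8 lower in the knockout, against 32.4% of all tested genes (16.7% higher and 15.6% lower). On chow 18 of 36 (50%) differed, 9 higher and 9 lower, against 31.2% of all genes (15.8% higher and 15.3% lower). Libraries of the groups did not overlap for 18 genes on HFD (50%, against 42.4% of all genes) and for 19 on chow (52.8%, against 41.5%). The changes were small. Log2 fold changes ran from -0.47 to 0.40 on HFD and from -0.30 to 0.35 on chow, none of the called ones reached 1.5-fold (7.19% and 9.80% of all genes were called at that size), and the median absolute log2 fold change was 0.08 on HFD and 0.13 on chow, where that of all genes was 0.19 and 0.17. Both diets shared 7 called genes, which is 50% of the 14 and 38.9% of the 18. These equal the shares called among all 36 genes, 50% on chow and 38.9% on HFD. The number shared is thus no larger than unrelated calls would give, but this count takes no account of direction. Of the 7 shared genes, 5 changed in the same direction on both diets and 2 in opposite directions. Lipa, Sqstm1 and Atg7 were lower and Map1lc3b and Npc2 higher in the knockout on both diets, while Hexa and Tfe3 were higher on chow and lower on HFD.

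**Figure D1:**
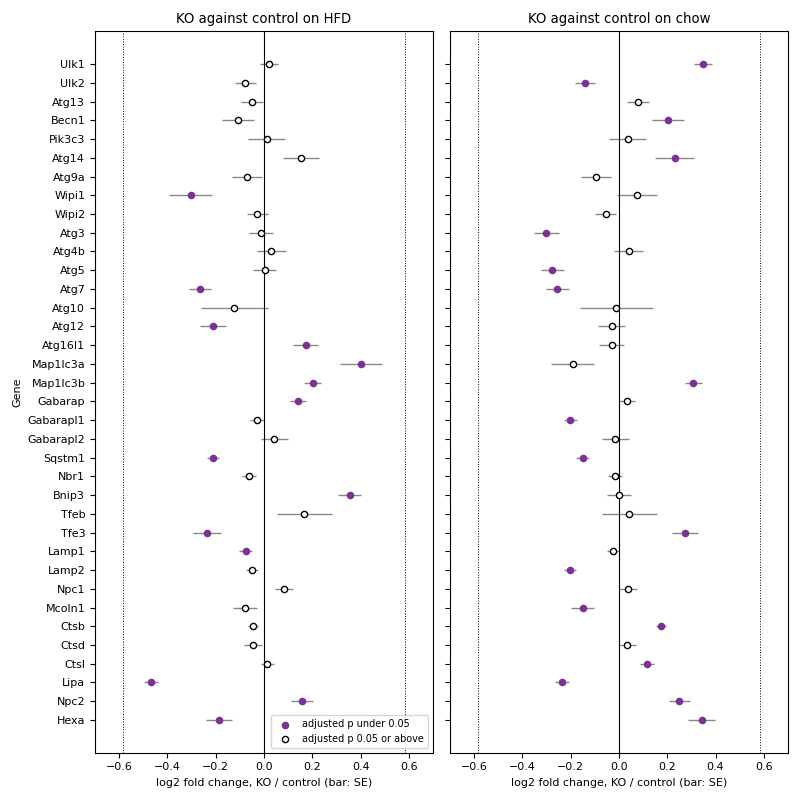
Log2 fold change of knockout over control (x axis) for each of the 36 genes (y axis), on HFD (left) and on chow (right). Points are the edgeR estimates, bars their SE, filled points have an adjusted p under 0.05, and dotted lines mark a 1.5-fold change; Lipa is lowest on HFD at -0.47 and no called gene passes the dotted lines.

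HFD against chow changed 16 of the 36 genes in control livers (44.4%), 13 higher and 3 lower on HFD, against 37.7% of all genes (18.8% higher and 18.9% lower). In knockout livers the diet changed 18 (50%), 12 higher and 6 lower, against 36.6% of all genes (18.5% higher and 18.1% lower). Groups did not overlap for 17 genes in control livers (47.2%, against 47.1% of all genes) and for 19 in knockout livers (52.8%, against 45.1%). Both genotypes shared 9 genes called for diet, 56.2% of the 16 and 50% of the 18. Among all 36 genes the shares called were 50% in knockout and 44.4% in control livers. The number shared was thus near what unrelated calls would give, but this count takes no account of direction. Of the 9 shared genes, 8 changed in the same direction in both genotypes and 1 in the opposite direction. Lipa, Sqstm1, Atg7, Atg14, Bnip3, Gabarapl1 and Map1lc3b were higher and Ctsl lower on HFD in both, and Map1lc3a fell in control and rose in knockout livers. The interaction, which tests whether the response to diet differed between the genotypes, was called for 15 genes (41.7%), 7 with a more positive and 8 with a more negative response in the knockout, against 29.8% of all genes (15.2% and 14.7%).

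All these calls rest on the small spread between libraries: with the coefficient of variation set to 20% for every gene, edgeR's likelihood ratio test called 0 of the 36 genes in each of the 5 comparisons (1, 0, 1, 3 and 0 at an unadjusted p under 0.05, in the order of knockout on HFD, knockout on chow, diet in control, diet in knockout and interaction). The split between directions depended on a correction for transcript length and GC content, which also shifted each library by its mean log2 deviation over genes. With it, the median log2 fold change of all tested genes became 0.035 for knockout on HFD, -0.048 on chow and -0.011 for diet in control. It became 0.073 for diet in the knockout and 0.086 for the interaction, where without it all 5 lay between -0.0073 and -0.0012. The parts of length, GC content and this shift were not tested. Values given with the trend removed include the shift, so they are to be read beside these medians. With each library's smooth trend on length and GC content removed, the called genes became 10 higher and 8 lower for knockout on HFD (55.6% higher, from 42.9%), 8 and 12 on chow (40% from 50%), 19 and 3 for diet in the knockout (86.4% from 66.7%) and 11 and 5 for the interaction (68.8% from 46.7%). For diet in control livers they were 13 and 5 (72.2% from 81.2%). The called genes among all tested moved with them: 63.7% were then higher for knockout on HFD (from 51.7%), 38.0% on chow (from 50.8%), 47.1% for diet in control (from 49.8%), 67.1% for diet in the knockout (from 50.5%) and 69.6% for the interaction (from 50.8%). Another count filter, scaling or tool ended the calls of Becn1, Map1lc3b and Gabarap on HFD in the knockout, Map1lc3a and Lamp1 on HFD in control livers, Lamp1 in the knockout on HFD and Atg16l1 in the interaction (adjusted p = 0.0501 to 0.230). The correction ended 12 of the 81 calls of the 36 genes and added 25, and 19 calls it kept moved by over 1.5 times. These values are given below, gene by gene, after the words "with the trend removed".

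**Figure D2:**
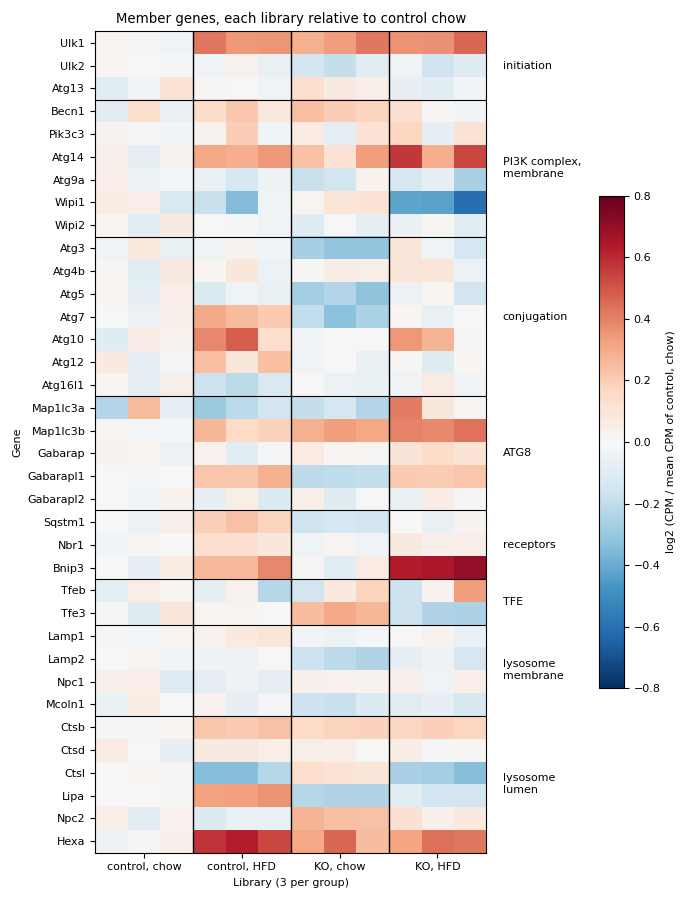
Level of each of the 36 genes (rows, grouped by role) in each of the 12 libraries (columns, grouped by genotype and diet), as log2 of its CPM over the gene's mean CPM in control chow livers (colour scale, red higher and blue lower). Bnip3 is reddest in knockout HFD livers, Hexa in control HFD livers, and Wipi1 is bluest in knockout HFD livers.

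Of the initiation kinases, Ulk1 was the gene that moved most. ULK1 phosphorylates the first autophagy proteins when nutrients fall. It was measured at 110.4, 110.1 and 107 CPM in control chow and at 133, 137 and 147 in knockout chow livers. On HFD it was at 147, 139 and 139 CPM in control and 139.9, 141 and 149.8 in knockout livers. The 3 control chow libraries were thus below all 9 others, which overlapped among themselves. Ulk1 was higher in the knockout on chow (0.35, SE 0.04, adjusted p = 4.09e-09) and higher on HFD in control livers (0.37, SE 0.04, adjusted p = 4.94e-10). The response to diet was smaller in the knockout (interaction -0.33, SE 0.05, adjusted p = 9.02e-06; -0.13, adjusted p = 0.031, with the length and GC trend removed). With the trend removed, Ulk1 also passed for knockout against control on HFD (0.11, adjusted p = 0.00702), where the main value was 0.02 with an adjusted p of 0.720, and for diet in the knockout (0.21, adjusted p = 1.58e-06, from 0.05). Ulk2, its paralog, was lower in the knockout on chow only by a small step, from 74.5 ± 0.786 to 67.6 ± 2.37 CPM (-0.14, adjusted p = 0.0102; 0.0699 without knockout chow replicate 2). Ulk2 was also called, with the trend removed, for diet in the knockout (0.12, adjusted p = 0.0161, from 0.05) and in the interaction (0.21, adjusted p = 0.00593, from 0.06). Atg13, the adaptor of the kinase, was lower on HFD in the knockout (-0.14, adjusted p = 0.0168; -0.03 and 0.615 with the trend removed; 0.0642 and 0.0885 without knockout HFD replicate 2 or knockout chow replicate 1).

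Genes of the class III kinase complex and of the early membrane changed one by one. Wipi1, which binds the lipid the kinase makes, was at 18.5, 18.5 and 16.4 CPM in control chow and 18.0, 19.0 and 19.2 in knockout chow livers. It was at 15.8, 14.0 and 17.4 CPM in control HFD and 13.3, 13.2 and 11.7 in knockout HFD livers. The knockout HFD libraries were the lowest of the 12. Wipi1 was lower in the knockout on HFD (log2 fold change -0.30, SE 0.09, adjusted p = 0.00682) and lower on HFD within the knockout (-0.56, SE 0.09, adjusted p = 2.89e-06), with an interaction of -0.38 (SE 0.12, adjusted p = 0.0153). The first call was lost without control HFD replicate 3 (adjusted p = 0.0854) or knockout HFD replicate 3 (0.0546), and the interaction without either of these (0.0739 and 0.0555), without control chow replicate 3 (0.0575) or with the trend removed (-0.25, adjusted p = 0.107). Its fall on HFD in control livers passed, with the trend removed, the threshold (-0.21, adjusted p = 0.0475, from -0.18).

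Atg14, the subunit that directs the kinase complex to autophagy, was at 16.3, 15.0 and 16.1 CPM in control chow and 19.6, 19.3 and 20.1 in control HFD livers, groups that did not overlap. In the knockout it was at 18.6, 17.1 and 19.9 CPM on chow and 23.3, 19.3 and 22.8 on HFD, which overlapped. Atg14 was higher on HFD in control livers (0.32, SE 0.08, adjusted p = 0.0015) and in knockout livers (0.24, adjusted p = 0.0129), and higher in the knockout on chow (0.23, adjusted p = 0.0261). Atg14 was, with the trend removed, called higher in the knockout on HFD (0.19, adjusted p = 0.0424, from 0.15) and no longer on chow (0.16, adjusted p = 0.123). The chow call was also lost without control chow replicate 2, knockout chow replicate 1 or knockout chow replicate 3 (adjusted p = 0.115, 0.0596 and 0.141), and the knockout diet call without knockout chow replicate 2, knockout HFD replicate 1 or knockout HFD replicate 3 (0.0976, 0.0885 and 0.0616). Becn1, the scaffold of the complex, rose on chow from 23.9 ± 2.09 CPM in control to 27.5 ± 0.618 in knockout livers (0.20, adjusted p = 0.0174) and fell on HFD in the knockout (-0.16, adjusted p = 0.0482), with an interaction of -0.31 (adjusted p = 0.0103). The chow call was lost without control chow replicate 1 or 3 or knockout chow replicate 1 (adjusted p = 0.102, 0.0874 and 0.0629), and the diet call without any one of 8 libraries, namely the 3 of knockout chow, replicates 2 and 3 of knockout HFD and the 3 of control HFD (0.0511 to 0.179). With the trend removed the interaction was -0.17 (adjusted p = 0.155) and the diet change in the knockout -0.09 (0.292). The catalytic subunit gene Pik3c3, the membrane carrier Atg9a and Wipi2 were called in none of the 5 comparisons, with group means of 19.2 to 20.3, 30.1 to 33.4 and 83.3 to 86.6 CPM. Atg9a was, with the trend removed, lower in the knockout on chow (-0.21, adjusted p = 0.00762, from -0.09). Wipi2 was then lower in the knockout on chow (-0.15, adjusted p = 0.00575, from -0.06), higher on HFD within the knockout (0.15, adjusted p = 0.00463, from 0.01) and called in the interaction (0.21, adjusted p = 0.00686, from 0.03). Pik3c3 was not called with the trend removed either. Atg9a overlaps Ankzf1 on the opposite strand (367 to 523 counts a library, beside at least 549 of Atg9a). Whether the counting used strand is not stated, so the level of Atg9a may include reads of Ankzf1.

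Of the 7 genes of the conjugation machinery, 3 were lower and none higher in the knockout on chow (42.9% called, against 31.2% of all genes), and 4 were not called. The median log2 fold change of the 7 was -0.03. On HFD 1 was higher and 2 were lower (42.9%, against 32.4%). Atg3, the enzyme that transfers ATG8 proteins to the lipid, was at 66.2, 71.1 and 64.7 CPM in control chow and 55.9, 54.1 and 54.1 in knockout chow livers. On HFD it was at 65.9, 68.5 and 66.1 CPM in control and 72.0, 65.8 and 61.0 in knockout livers. The knockout chow libraries were below the other 9. Atg3 fell by 0.30 on the log2 scale in the knockout on chow (SE 0.05, adjusted p = 1.21e-05) and was higher on HFD within the knockout (0.28, adjusted p = 3.45e-05), with an interaction of 0.29 (SE 0.07, adjusted p = 0.00175).

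Atg5, which is joined to ATG12 and acts with ATG16L1 as the ligase for ATG8 proteins, showed the same order. It was at 59.7, 56.2 and 61.2 CPM in control chow, 48.8, 50.2 and 47.1 in knockout chow, 54.8, 57.8 and 56.8 in control HFD and 57.2, 59.6 and 53.0 in knockout HFD livers. All 3 knockout chow libraries were below the other 9. Its log2 fold change in the knockout was -0.28 on chow (SE 0.05, adjusted p = 2.68e-05), while on HFD it came to 0.00 (adjusted p = 0.974), and the interaction was 0.28 (SE 0.07, adjusted p = 0.00182).

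Atg7, the enzyme that activates both ATG12 and the ATG8 proteins, was lower in the knockout on both diets and higher on HFD in both genotypes. It was at 54.0, 52.1 and 55.6 CPM in control chow and 47.1, 43.0 and 45.3 in knockout chow livers. On HFD it was at 66.6, 64.2 and 62.2 CPM in control and 54.6, 51.7 and 54.1 in knockout livers. The knockout HFD libraries overlapped those of control chow, and no other pair of groups overlapped. The log2 fold change in the knockout was -0.26 on chow (SE 0.05, adjusted p = 5.84e-05), while on HFD it came to -0.27 (SE 0.05, adjusted p = 1.97e-05). On HFD against chow it was 0.25 in control (adjusted p = 2.79e-05) and 0.24 in knockout livers (adjusted p = 9.40e-05; 0.37 with the trend removed).

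Atg12, the ubiquitin-like protein of the ligase, was at 41.5, 37.4 and 41.5 CPM in control HFD and 35.5, 32.9 and 35.6 in knockout HFD livers, where the groups did not overlap. It was at 37.1, 33.5 and 35.0 CPM in control chow and 34.3, 35.2 and 33.8 in knockout chow livers. It was lower in the knockout on HFD (-0.21, SE 0.06, adjusted p = 0.00305; -0.10, adjusted p = 0.156, with the trend removed) and higher on HFD in control livers (0.19, adjusted p = 0.00591; 0.13, adjusted p = 0.061, with the trend removed). Atg16l1 went the other way. It was at 32.8, 31.9 and 34.1 CPM in control HFD, below 36.3, 38.7 and 36.5 in knockout HFD, 37.7, 35.1 and 38.3 in control chow and 37.1, 35.9 and 35.8 in knockout chow livers. Its log2 fold change in the knockout on HFD was 0.17 (SE 0.05, adjusted p = 0.0116; 0.29 with the trend removed; 0.0598 and 0.0741 without control HFD or knockout HFD replicate 2), and in control livers it fell by 0.17 on HFD (adjusted p = 0.0117; 0.0648 and 0.0663 without control HFD replicate 2 or control chow replicate 3). The interaction for Atg16l1 was 0.20 (adjusted p = 0.0393; 0.36 with the trend removed), and its call was lost without any one of 7 libraries (adjusted p = 0.0631 to 0.113), namely replicates 1 and 3 of control chow, 1 and 2 of control HFD, 2 and 3 of knockout chow and 2 of knockout HFD. The protease Atg4b (29.8 to 30.9 CPM in the group means) and Atg10, the enzyme that attaches ATG12 to ATG5 (4.16 to 5.30 CPM), were called in no comparison. Atg10 was, with the trend removed, called higher on HFD in control livers (0.41, adjusted p = 0.0221, from 0.34).

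**Figure D3:**
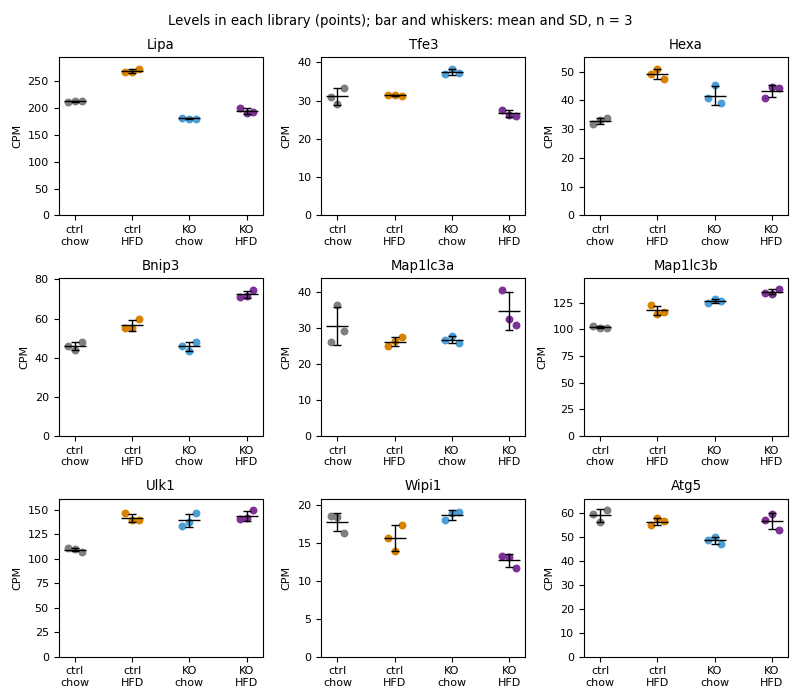
CPM (y axis, from 0) of 9 genes in each library (points) of the 4 groups (x axis), with the mean and SD as bar and whiskers. Lipa is at 191 to 200.2 CPM in knockout HFD livers and 267 to 274 in control HFD livers, and Tfe3 is highest in knockout chow and lowest in knockout HFD livers.

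In the ATG8 family, 3 of the 5 genes were higher and none lower in the knockout on HFD (60%, against 32.4% of all genes), which became 2 higher and 1 lower with the trend removed. On chow 1 was higher and 1 lower (40%, against 31.2% of all genes). Summed over the 5 genes, the level was 666 to 667 CPM in the knockout HFD libraries, 613 to 635 in control HFD, 571 to 582 in control chow and 569 to 573 in knockout chow. Map1lc3b, the LC3 gene that is most used as an autophagosome marker, was at 103, 102 and 101 CPM in control chow, 124, 128 and 126 in knockout chow, 123, 114 and 116 in control HFD and 134, 133 and 138 in knockout HFD livers. It was lowest in all 3 control chow and highest in all 3 knockout HFD libraries. Its log2 fold change in the knockout was 0.31 on chow (SE 0.04, adjusted p = 9.31e-09), while on HFD it came to 0.20 (SE 0.03, adjusted p = 1.62e-05). On HFD it rose by 0.20 in control livers (adjusted p = 1.30e-05) and by 0.10 in the knockout (adjusted p = 0.0241; 0.21 with the trend removed; 0.0893 and 0.0779 without knockout chow replicate 1 or knockout HFD replicate 3).

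Map1lc3a, a second LC3 gene, had the largest interaction of the 36 genes in the fit as described, but not in every alternative. It was at 26.1, 36.6 and 29.3 CPM in control chow and 26.8, 27.9 and 26.0 in knockout chow livers. It was at 25.0, 26.4 and 27.6 CPM in control HFD and 40.7, 32.6 and 31.1 in knockout HFD livers. One library of control chow (36.6) and one of knockout HFD (40.7) lay well above the rest of their groups. Map1lc3a was higher in the knockout on HFD (log2 fold change 0.40, SE 0.09, adjusted p = 0.000443; 0.26, adjusted p = 0.0216, with the trend removed) and higher on HFD within the knockout (0.37, adjusted p = 0.000919), with an interaction of 0.59 (SE 0.12, adjusted p = 0.000352), a 1.51-fold difference in response. With the trend removed the interaction was 0.47 (adjusted p = 0.00413), smaller in size than that of Hexa (-0.51). It was 0.45 without control chow replicate 2 and 0.46 without knockout HFD replicate 1, and in both cases Hexa and Tfe3 were larger in size. Its fall on HFD in control livers (-0.22, adjusted p = 0.0482) was -0.07 without control chow replicate 2 (adjusted p = 0.567) and -0.03 with the trend removed (0.840). That call was also lost without control HFD replicate 1 or 2 (0.158 and 0.0972) or any library of knockout chow (0.0522 to 0.0549).

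Gabarapl1, the most abundant ATG8 gene per kilobase, was higher on HFD in both genotypes. It rose from 233 ± 1.39 to 275 ± 7.12 CPM in control livers (0.24, SE 0.03, adjusted p = 1.26e-08) and from 203 ± 1.23 to 269.7 ± 2.14 CPM in the knockout (0.41, SE 0.03, adjusted p = 5.32e-14). The knockout was lower on chow (-0.20, adjusted p = 6.88e-07), and the interaction was 0.17 (adjusted p = 0.00101). Gabarapl1 was also, with the trend removed, called lower in the knockout on HFD (-0.10, adjusted p = 0.00453, from -0.03). Gabarap was slightly higher in knockout HFD livers, at 189.5 ± 3.29 CPM against 172 ± 7.28 in control HFD (0.14, adjusted p = 0.00113; 0.06, adjusted p = 0.144, with the trend removed) and 178 ± 3.74 in knockout chow livers (0.09, adjusted p = 0.0354; 0.113, 0.110 and 0.140 without knockout chow replicate 2, knockout chow replicate 3 or knockout HFD replicate 2). Gabarapl2 stayed between 34.4 and 38.7 CPM in all libraries and was called in no comparison. How the counting treated reads shared by these paralogs and their pseudogenes and whether it used strand are not stated in the labels or the file header, and Map1lc3b overlaps Zcchc14 (783 to 1014 counts a library) on the opposite strand.

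Among the cargo receptors, Bnip3 rose and Sqstm1 fell in the knockout on HFD. BNIP3 sits in the outer mitochondrial membrane and recruits mitochondria to autophagosomes. Bnip3 was at 45.9, 43.8 and 47.9 CPM in control chow and 46.2, 43.3 and 48.1 in knockout chow livers, groups that overlapped. On HFD it was at 55.0, 55.0 and 59.9 CPM in control and 71.1, 71.7 and 74.6 in knockout livers, where no library of one group reached the other. Bnip3 was higher in the knockout on HFD (log2 fold change 0.36, SE 0.05, adjusted p = 2.59e-07, or 1.28-fold) and not on chow (0.00, adjusted p = 0.994). The rise on HFD was 0.30 in control (SE 0.05, adjusted p = 5.87e-06) and 0.66 in knockout livers (SE 0.05, adjusted p = 3.32e-13), the only called change of the 36 genes above 1.5-fold within 2 groups (1.58-fold; 11.4% of all genes were called at that size in that comparison), with an interaction of 0.36 (SE 0.07, adjusted p = 0.000141).

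Sqstm1 encodes p62, which links ubiquitinated cargo to LC3 and is itself degraded by autophagy, so its mRNA level is not its protein level. It was at 539, 523 and 557 CPM in control chow and 484, 490.4 and 486 in knockout chow livers. In HFD-fed livers it was at 616, 635 and 610.4 CPM in control and 541, 517 and 549.5 in knockout livers. Knockout HFD and control chow libraries overlapped, and control HFD was above all others. Sqstm1 was lower in the knockout on HFD (-0.21, SE 0.03, adjusted p = 7.49e-08) and, by less, on chow (-0.15, SE 0.03, adjusted p = 2.97e-05; -0.25 with the trend removed), and higher on HFD in control (0.20, adjusted p = 1.34e-07) and knockout livers (0.14, adjusted p = 7.25e-05; 0.24 with the trend removed). Nbr1, a related receptor, was called for diet in control livers, at 215 ± 4.03 CPM on chow and 234 ± 3.39 on HFD (0.12, adjusted p = 0.00142). With the trend removed that call was lost (0.05, adjusted p = 0.133) and diet in the knockout was called instead (0.15, adjusted p = 3.06e-05, from 0.07).

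The transcription factor genes differed from each other. Tfe3 was at 30.9, 29.0 and 33.3 CPM in control chow and 36.9, 38.3 and 37.3 in knockout chow livers. It was at 31.5, 31.5 and 31.2 CPM in control HFD and 27.6, 26.3 and 26.0 in knockout HFD livers. The knockout thus had the highest 3 libraries on chow and the lowest 3 on HFD, while the control groups overlapped. Its log2 fold change in the knockout was 0.27 on chow (SE 0.06, adjusted p = 0.000183; 0.18, adjusted p = 0.00982, with the trend removed), while on HFD it came to -0.24 (SE 0.06, adjusted p = 0.00147; -0.16, adjusted p = 0.0331, with the trend removed). Within the knockout it fell by 0.49 on HFD (SE 0.06, adjusted p = 9.09e-09), with an interaction of -0.51 (SE 0.08, adjusted p = 5.41e-06; -0.34 with the trend removed). Tfeb, at 8.78 to 12.9 CPM over all libraries, was called in no comparison, with a log2 fold change in the knockout of 0.17 on HFD (SE 0.11, adjusted p = 0.286), while on chow it was 0.04 (SE 0.11, adjusted p = 0.826). The counts measure mRNA, and these factors are known to be controlled mainly by phosphorylation and movement into the nucleus, which were not measured here.

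The 4 genes of the lysosomal membrane had called log2 values between -0.20 and 0.15. Lamp2, needed for fusion of autophagosomes with lysosomes, was at 753 ± 10.3 CPM in control chow, 653 ± 17.5 in knockout chow, 737 ± 11.1 in control HFD and 712 ± 23.1 in knockout HFD livers. It was lower in the knockout on chow (-0.20, SE 0.03, adjusted p = 3.96e-08) and higher on HFD within the knockout (0.12, adjusted p = 0.000121; 0.19 with the trend removed), with an interaction of 0.15 (adjusted p = 0.000852; 0.24 with the trend removed). For knockout against control on HFD its direction turned with the trend removed, from -0.05 (adjusted p = 0.123) to 0.08 (adjusted p = 0.00397). Lamp1, the abundant glycoprotein of the lysosomal membrane, was at 385 ± 11.5 CPM in knockout HFD against 406 ± 8.63 in control HFD livers (-0.08, adjusted p = 0.026; 0.0786, 0.119 and 0.170 without control HFD replicate 2, control HFD replicate 3 or knockout HFD replicate 3). Its rise on HFD in control livers (0.07, adjusted p = 0.0373) was lost without any one of control chow replicates 1 and 2 and control HFD replicates 2 and 3 (adjusted p = 0.0871 to 0.130). Lamp1 was also, with the trend removed, lower in the knockout on chow (-0.09, adjusted p = 0.00401, from -0.02) and higher on HFD within the knockout (0.08, adjusted p = 0.0172, from 0.02). In that setting the medians of all tested genes were -0.048 and 0.073, so the rise was about that of the median gene. Mcoln1, the calcium channel of the lysosome, was lower in the knockout on chow, at 41.9 ± 1.07 against 46.4 ± 1.85 CPM (-0.15, adjusted p = 0.0163; -0.23 with the trend removed; 0.105, 0.0508 and 0.0678 without control chow replicate 2 or knockout chow replicates 1 or 2). Mcoln1 was also called, with the trend removed, for diet in the knockout (0.16, adjusted p = 0.00764, from 0.05) and in the interaction (0.22, adjusted p = 0.00984, from 0.07). Npc1, which exports cholesterol from the lysosome, had group means of 119 to 128 CPM and was called in no comparison. It was called in 3 with the trend removed: higher in the knockout on HFD (0.21, adjusted p = 1.22e-05, from 0.08), lower on HFD in control livers (-0.13, adjusted p = 0.0045, from -0.06) and with an interaction of 0.21 (adjusted p = 0.00139, from 0.05). On the opposite strand, Npc1 overlaps Rmc1 (396 to 536 counts a library, beside at least 2259 of Npc1). Lamp1 likewise overlaps Grtp1 (309 to 436 counts, beside at least 6864 of Lamp1). The 4 promoter stretches above belong to Lamp1, Mcoln1, Atg3 and Ctsd, and of these genes Ctsd was called in no comparison without the trend removed.

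Of the 6 genes of the lysosomal lumen, Lipa had the lowest log2 fold change in the knockout of all 36 genes on HFD. Lipa was at 212, 213 and 214 CPM in control chow and 182, 180.1 and 181 in knockout chow livers. Under HFD it was at 267, 268 and 274 CPM in control and 200.2, 191 and 193 in knockout livers. No 2 groups overlapped, and both knockout groups were below both control groups. The knockout HFD level was 72.3% of the control HFD level (log2 fold change -0.47, SE 0.03, adjusted p = 5.77e-15). The chow pair gave a log2 fold change of -0.24 (SE 0.03, adjusted p = 5.28e-08). HFD raised Lipa by 0.34 in control livers (SE 0.03, adjusted p = 8.31e-12) and by 0.11 in the knockout (SE 0.03, adjusted p = 0.00373; 0.18 with the trend removed). The interaction was -0.23 (SE 0.04, adjusted p = 3.39e-05; -0.11, adjusted p = 0.0218, with the trend removed), and Lipa was the only one of the 36 genes called in all 5 comparisons.

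Hexa encodes a subunit of hexosaminidase, which degrades gangliosides. It was at 31.8, 33.1 and 33.8 CPM in control chow and 40.9, 45.3 and 39.0 in knockout chow livers. With HFD it was at 49.1, 50.9 and 47.6 CPM in control and 40.9, 44.6 and 44.2 in knockout livers. Control livers were at the bottom on chow and at the top on HFD, with the overlapping knockout groups between them. Hexa was higher in the knockout on chow (0.34, SE 0.06, adjusted p = 1.04e-05) and lower on HFD (-0.19, SE 0.05, adjusted p = 0.0064; 0.0531 without knockout HFD replicate 1). Its rise on HFD in control livers was 0.58 (SE 0.06, adjusted p = 1.51e-10), and the interaction was -0.53 (SE 0.08, adjusted p = 1.94e-06). In knockout livers the diet gave 0.05 (adjusted p = 0.520).

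The cathepsins are proteases of the lysosome. Ctsl was at 562, 571 and 556 CPM in control chow and 445, 444 and 479.6 in control HFD livers. In the knockout it was at 620.0, 608 and 602 CPM on chow and 471, 467 and 445 on HFD. It was lower on HFD in every library of both genotypes, and the HFD groups overlapped. Ctsl fell by 0.30 on HFD in control (SE 0.03, adjusted p = 6.93e-11) and by 0.40 in knockout livers (SE 0.03, adjusted p = 5.91e-14), and it was higher in the knockout on chow (0.12, adjusted p = 0.0012). Its interaction (-0.10, adjusted p = 0.0462) became 0.03 (adjusted p = 0.505) with the trend removed, and the call was lost without any one of 7 libraries (adjusted p = 0.0537 to 0.203), namely replicates 1 and 3 of control chow, 3 of control HFD, 1 and 2 of knockout chow and 2 and 3 of knockout HFD. Ctsl was, with the trend removed, called higher in the knockout on HFD (0.11, adjusted p = 0.000292, from 0.01). Ctsb went up on HFD in control livers, from 519.9 ± 4.90 to 606 ± 5.55 CPM (0.22, adjusted p = 5.30e-10), and was at 587 ± 4.79 and 587 ± 6.06 CPM in knockout chow and HFD livers (knockout on chow 0.17, adjusted p = 1.23e-07, 0.11 with the trend removed; interaction -0.22, adjusted p = 1.31e-06, -0.08 with the trend removed). Diet in the knockout was called for Ctsb with the trend removed (0.09, adjusted p = 0.000919, from 0.00), where the median of all tested genes was 0.073. Ctsb overlaps Fdft1 on the opposite strand (2835 to 4721 counts a library, beside at least 9268 of Ctsb). Ctsd, at group means of 92.4 to 96.8 CPM, was called in no comparison, and with the trend removed only for diet in control livers (0.10, adjusted p = 0.0419, from 0.07).

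Npc2, which hands cholesterol to NPC1 in the lumen, was higher in the knockout on both diets. It was at 62.8, 56.8 and 62.2 CPM in control chow and 73.1, 71.6 and 71.2 in knockout chow livers. In HFD-fed livers it was at 56.1, 58.2 and 58.3 CPM in control and 66.1, 62.4 and 64.1 in knockout livers. The knockout chow libraries were the highest of the 12. The log2 fold change in the knockout was 0.25 on chow (SE 0.04, adjusted p = 2.51e-05; 0.16 with the trend removed), while on HFD it came to 0.16 (SE 0.04, adjusted p = 0.00546). In the knockout it fell by 0.16 on HFD (adjusted p = 0.00275; -0.06, adjusted p = 0.240, with the trend removed), and with the trend removed a fall on HFD in control livers was called (-0.12, adjusted p = 0.0322, from -0.07).

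**Figure D4:**
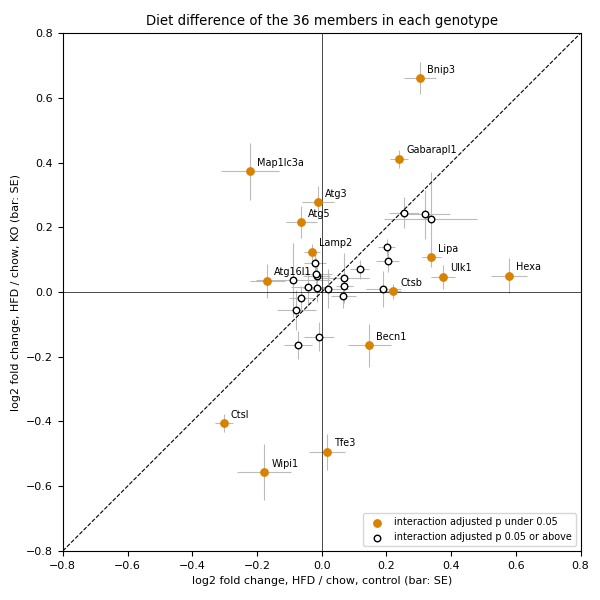
Log2 fold change of HFD over chow in control livers (x axis) and in knockout livers (y axis) for the 36 genes (points), with bars for the SE, the line of equal response dashed and filled points where the interaction has an adjusted p under 0.05. Map1lc3a and Bnip3 lie above the line, and Hexa, Tfe3, Wipi1 and Ulk1 below it.

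Other genes of the pathway were counted from lists of their neighbours in function. Of 24 other autophagy machinery genes, 5 were higher and 4 lower in the knockout on HFD (37.5%, against 32.4% of all genes), and 4 were higher and 2 lower on chow (25%, against 31.2%). Snap29, a SNARE of autophagosome fusion, was at 22.3 CPM in knockout HFD against 28.8 in control HFD livers (-0.37, SE 0.07, adjusted p = 2.58e-05). Atg16l2, a paralog of Atg16l1, showed the largest diet response of that list, from 25.2 to 12.8 CPM in control (-0.97, SE 0.07, adjusted p = 3.76e-13) and from 36.5 to 15.0 in knockout livers (-1.28, SE 0.07, adjusted p = 7.99e-17). Of 13 other selective receptors tested, 8 were higher and 2 lower on HFD in control livers (76.9%, against 37.7% of all genes), and 9 were higher and none lower in the knockout (69.2%, against 36.6%). For genotype the list was nearer to all genes, with 4 higher and 1 lower in the knockout on HFD (38.5%) and 2 and 2 on chow (30.8%). Stbd1, a receptor for glycogen, was at 71.9 CPM in control chow and 113 in knockout chow livers (0.65, SE 0.04, adjusted p = 2.80e-15), and at 99.7 and 125 CPM on HFD (0.33, SE 0.04, adjusted p = 1.04e-08). Retreg1, a receptor for endoplasmic reticulum, was higher in the knockout on HFD (0.46, SE 0.05, adjusted p = 7.23e-09) as well as on chow (0.35, SE 0.05, adjusted p = 1.88e-06).

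Of 24 genes of the upstream control of autophagy (mTOR, AMPK, Rag GTPases, FoxO and related factors), 3 were higher and 8 lower in the knockout on HFD (45.8%, against 32.4% of all genes), and 12 were higher and 1 lower on HFD in control livers (54.2%, against 37.7%). Knockout on chow gave 4 and 3 (29.2%, against 31.2%), and diet in the knockout 4 and 4 (33.3%, against 36.6%; 13 and 3 with the trend removed). Mtor, the kinase that holds autophagy back when nutrients are plentiful, was at 53.6, 54.9 and 53.0 CPM in control chow and 76.6, 80.5 and 74.1 in control HFD livers. In the knockout it was at 54.5, 55.7 and 52.5 CPM on chow and 52.4, 58.7 and 56.2 on HFD. Control HFD was above all other libraries (knockout against control on HFD -0.47, SE 0.05, adjusted p = 4.50e-10; interaction -0.48, SE 0.07, adjusted p = 6.24e-07). Zkscan3, a repressor of autophagy genes in human cells, was at 130.0, 134 and 133 CPM in control HFD and 85.3, 85.8 and 90.1 in knockout HFD livers (-0.60, SE 0.04, adjusted p = 1.18e-15), and lower in the knockout on chow too (-0.25, adjusted p = 9.51e-07). Ddit4, an inhibitor of mTOR complex 1 that responds to stress and glucocorticoids, was at 18.5, 12.9 and 14.7 CPM in control chow and 46.1, 50.7 and 53.0 in knockout chow livers (1.71, SE 0.08, adjusted p = 4.56e-18). Under HFD it was at 28.4, 29.8 and 33.3 CPM in control and 38.3, 35.8 and 35.0 in knockout livers (0.25, adjusted p = 0.00872), with an interaction of -1.46 (SE 0.11, adjusted p = 1.92e-12). Foxo1, which drives transcription of autophagy genes, was higher in the knockout on chow (0.56, adjusted p = 1.71e-10) and on HFD (0.25, adjusted p = 8.80e-05).

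Of 37 other lysosomal hydrolases and activators, 11 were higher and 2 lower in the knockout on chow (35.1%, against 31.2% of all genes), and 10 were higher and 10 lower on HFD (54.1%, against 32.4%). Within the knockout, HFD lowered 17 and raised 4 (56.8%, against 36.6%), and in control livers it lowered 8 and raised 12 (54.1%, against 37.7%). With the trend removed the counts were 7 higher and 8 lower for knockout on chow, and 13 lowered and 12 raised by HFD within the knockout. The list's largest rises in the knockout on chow were those of Ctss (1.31, SE 0.08, adjusted p = 1.74e-15), Lgmn (0.95, SE 0.05, adjusted p = 1.09e-16) and Ctsc (0.75, SE 0.04, adjusted p = 2.81e-16), proteases that are abundant in macrophages. Ctss was at 12.9, 14.3 and 11.5 CPM in control chow and 32.6, 30.9 and 32.6 in knockout chow livers, and at 13.9, 16.9 and 15.4 in control HFD and 20.7, 20.5 and 19.5 in knockout HFD livers. All 12 resident macrophage markers were higher in the knockout on chow (median log2 fold change 1.29, against 15.8% of all genes called higher). All 12 were lower on HFD within the knockout (median -0.66, against 18.1% of all genes called lower). Of the 12, 10 were higher in the knockout on HFD (against 16.7% of all genes). On chow, 10 of 12 recruited or lipid-associated macrophage markers (median 1.15) and 6 of 10 stellate cell markers (median 0.32) were also higher, and none lower. So were 9 of 10 neutrophil markers (median 1.51) and 7 of 10 sinusoidal endothelial markers (median 0.23), with none lower. Of 6 erythroid markers tested, 4 were higher and 1 lower. The part of these cell types in the results of the lysosomal genes, the 36 included, was not tested.

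**Figure D5:**
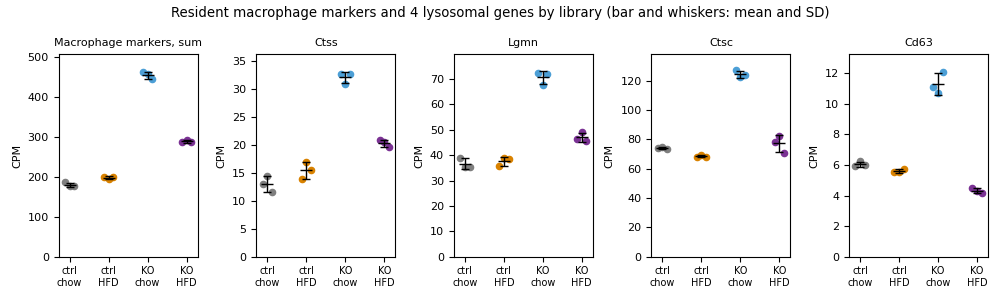
CPM (y axes, from 0) in each library (points) of the 4 groups (x axes), with mean and SD, for the sum of 12 resident macrophage markers and for the lysosomal genes Ctss, Lgmn, Ctsc and Cd63. All 5 panels are highest in the 3 knockout chow libraries, and Cd63 is lowest in the knockout HFD libraries. Ctss, Lgmn, Ctsc and Cd63 had the largest rises of their lists in the knockout on chow. Their high level there thus follows from the choice of genes.

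The remaining lists hold lysosomal membrane proteins, the proton pump and sorting genes. Of 19 other lysosomal membrane proteins tested, 2 were higher and 4 lower in the knockout on HFD (31.6%, against 32.4% of all genes), and 4 were higher and 1 lower on chow (26.3%, against 31.2%). Cd63, a tetraspanin of late endosomes, went from 6.05 CPM in control to 11.3 in knockout livers on chow (0.90, SE 0.11, adjusted p = 3.55e-08) and from 5.62 to 4.31 on HFD (-0.38, SE 0.13, adjusted p = 0.0173). Of 16 subunits of the V-ATPase, which acidifies the lysosome, 6 were higher and 2 lower in the knockout on HFD (50%, against 32.4%), with Atp6v1g1 the highest of them (0.36, SE 0.05, adjusted p = 1.53e-06). On chow 3 were higher and 1 lower (25%, against 31.2%). Of 12 sorting genes, 3 were lower and none higher in the knockout on HFD (25%, below the 32.4% of all genes; 2 lower and 1 higher with the trend removed), namely Gga2 (-0.32), Vps29 (-0.26) and Vps35 (-0.20). Sort1, the sorting receptor sortilin, was at 23.5 CPM in control chow and 10.4, 10.7 and 8.99 in the control HFD libraries (-1.23, SE 0.09, adjusted p = 1.11e-13), and at 24.8 and 9.06 CPM in the knockout (-1.45, SE 0.09, adjusted p = 3.53e-15).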

How the data were processed

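Per the labels, TRIzol was used to extract total liver RNA and libraries followed standard Illumina protocols. The authors deposited whole-number read counts per Ensembl gene ID in 1 table, and its 12 columns matched the sample titles. Bowtie 0.12.2 and build mm8 come from the submitters' processing notes. Which program and annotation gave the counts, and whether strand was used, is not stated there. Of the 53465 IDs, 53274 were given symbols from GENCODE M21, whose exon lengths also served for CPM per kb.

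Genes were filtered with filterByExpr, scaled by TMM and fitted with 1 quasi-likelihood model over all 4 groups (edgeR 4.0.16, R 4.3.3). The main fit has no replicate block. The 5 comparisons were knockout against control within a diet, HFD against chow within a genotype, and the interaction. SE is the log2 fold change divided by the square root of F. A permutation test of 3 against 3 libraries cannot go below p = 0.1, so single values were not permuted. Libraries of a group differed by 1.59 to 2.34 times sampling noise (median chi-square per gene over its expectation) and libraries of different groups by 5.43 to 10.98 times, and none was counted as a repeat. The fit was also run on simulated counts with a set spread between independent libraries. That run cannot show whether the spread between the real libraries is technical. Values in every library are given for members past the threshold whose groups did not overlap (for the interaction, the threshold alone): the 12 largest changes for knockout on HFD, and 6 each for knockout on chow, diet in control and the interaction. Gabarapl1, Ctsb and other members are given by means and fold changes. From each further list, genes were drawn from the 3 highest and 3 lowest per comparison with at least 5 CPM. The members and lists were chosen with earlier results of these data known. Alternatives used no count filter or 5 CPM, DESeq2 1.42.0 size factors or its Wald test, upper-quartile scaling, limma 3.58.1 voom, the groups alone, a replicate block, length and GC trends (splines, 5 df) as offsets, each library left out, a coefficient of variation of 20%, and a 1.5-fold threshold. The trend offsets included each library's mean log2 deviation over genes.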

Additional observations from a re-analysis of the deposited data

Results flagged for a closer look

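For 15 of the 36 genes the response to HFD differed between knockout and control livers by the interaction test of edgeR (adjusted p under 0.05, called for 29.8% of all tested genes). The log2 difference, knockout minus control, was positive for Map1lc3a (0.59), Bnip3 (0.36), Atg3 (0.29), Atg5 (0.28), Atg16l1 (0.20), Gabarapl1 (0.17) and Lamp2 (0.15). It was negative for Hexa (-0.53), Tfe3 (-0.51), Wipi1 (-0.38), Ulk1 (-0.33), Becn1 (-0.31), Lipa (-0.23), Ctsb (-0.22) and Ctsl (-0.10). With the trend removed, the calls of Becn1, Wipi1 and Ctsl were lost (adjusted p = 0.155, 0.107 and 0.505), and Ctsl turned to 0.03. Leaving out 1 library ended the call of Atg16l1 in 7 cases, that of Ctsl in 7 and that of Wipi1 in 3. Only the value of Map1lc3a passed 1.5-fold, and not in every alternative. It was below that size with the trend removed (0.47) and without control chow replicate 2 (0.45). Over the same groups, all 12 resident macrophage markers were called with a negative interaction (median -0.76), against 14.7% of all genes. So were 8 of 12 recruited or lipid-associated macrophage markers (median -1.24) and 8 of 10 stellate cell markers (median -0.63), with none called positive. Hepatocyte markers went the other way, with 6 of 9 called positive and 2 negative, as did erythroid markers, with 5 of 6 positive. The part of these cell types in the 15 values was not tested.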

How the results depend on the processing

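Of 81 calls of the 36 genes in the 5 comparisons, 56 were kept in every alternative other than the fixed coefficient of variation and the 1.5-fold threshold, and 25 were lost or reversed in at least 1. Beside those 2 settings, removing the length and GC trend changed most, with 12 calls lost and 25 gained: 10 genes were then higher in the knockout on HFD (from 6), 5 lower on HFD in control livers (from 3), 19 higher and 3 lower on HFD in the knockout (from 12 and 6), and 11 and 5 in the interaction (from 7 and 8). Of all called genes, 67.1% (from 50.5%) were then higher for diet in the knockout and 69.6% (from 50.8%) in the interaction. The same step also shifted each library by its mean log2 deviation over genes. The median log2 fold change of all tested genes became 0.073 for diet in the knockout and 0.086 in the interaction. With the replicate block as well the counts of the 36 genes were 10, 4, 19 and 3, and 12 and 5, and the cause was not tested. Some values turned: Ctsl in the interaction to 0.0321 and 0.0322, Lamp2 in the knockout on HFD to 0.0762 and 0.0761, and Atg7 in the interaction to 0.16 with the block. With a coefficient of variation of 20%, 0 genes were called in every comparison and direction by edgeR's likelihood ratio test (0 to 3 at an unadjusted p under 0.05, smallest adjusted p = 0.0693). At 1.5-fold, 1 gene was higher on HFD in the knockout and 1 in the interaction, and 0 elsewhere. Over all tested genes the replicate numbers showed no pairing of libraries: same-numbered libraries correlated between -0.02 and 0.03 in their deviations (18 pairs, 0 over 0.1), and 4 of 12 were nearest to their own number. A pairing that moves few genes would not be seen by this check. The replicate block alone lost 2 calls (Map1lc3a for diet in control, adjusted p = 0.0553, and Ctsl in the interaction, 0.0597), giving 6 higher and 8 lower for knockout on HFD, 9 and 9 on chow, 13 and 2 for diet in control, 12 and 6 in the knockout, and 7 and 7 in the interaction. Leaving out 1 library gave 5 to 7 higher and 6 to 8 lower for knockout on HFD, 7 to 9 and 7 to 10 on chow, 12 to 13 and 1 to 4 for diet in control (1 without control HFD replicate 2), 10 to 13 and 4 to 6 in the knockout, and 6 to 7 and 6 to 9 in the interaction. The interaction needs all 4 groups, so it was not fitted on groups alone. Tfeb and Atg10, at 70 to 255 counts, had the widest errors.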
